A study of Mus musculus with 12 samples.

Results

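The genes described are the 75 mouse genes on the array that encode proteins of the cytosolic ribosome, out of 31758 genes on it. They were chosen by symbol alone: names made of Rps or Rpl and a number, with or without an a or x, and also Rpsa, Rplp0, Rplp1 and Rplp2. The symbol rule itself uses no measured value, but the family was chosen with earlier results of these data known. The kinases named Rps6k and the paralogue Rpl39l were left out. Of these genes 29 belong to the small subunit, 43 to the large subunit and 3 to its stalk, and they carried 109 probes. All 75 were well above background on all 12 arrays and were among the 20875 genes tested.

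One-colour Agilent arrays measured total RNA: each probe's signal is the light from the Cy3-dyed RNA that it caught. The 12 arrays form 3 groups of 4, namely mESC (mouse embryonic stem cells), day 9 and day 14, the last pair being stages of a differentiation towards cardiomyocytes. Per the labels, cells were plated on a coating of crosslinked ELP, an elastin-like polypeptide, in a medium that lacked LIF, the factor that keeps mESC undifferentiated, and later in GMEM with serum replacement. The same text is attached to the mESC samples, and the labels name no genotype, strain or added cardiac factor. Nothing in the labels tells whether replicates came from different cultures, and p-values therefore reflect the scatter among these 4 arrays per group, which could be technical only. Since slide and scan coincide with group, their effects and those of the stage cannot be told apart.

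Ribosomes join amino acids into proteins, and each is built from a small subunit that reads the mRNA and a large subunit that forms the peptide bonds. The stalk of the large subunit recruits the elongation factors. Cells make the ribosomal proteins in near equal numbers, from mRNAs that are among the most abundant of a growing cell and that begin with a tract of pyrimidines, the TOP motif, through which mTOR signalling and Larp1 control their translation. Dividing stem cells are known for high rates of ribosome production.

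The starts of these genes are shown because mRNAs of this family are known to begin with a TOP tract. RefSeq promoter entries on GRCm38.p6 were found for 56 of the 75 genes, in 66 windows that reach from 250 bases before to 50 after the annotated start. The 30 bases around the start, 15 on each side, are printed 5′ to 3′ on the gene's strand, with the longest run of C and T in capitals. The first 3 genes had the largest log2 changes below 0 at day 14 among genes with 1 annotated start, and the last 3 the smallest.
Rpl31: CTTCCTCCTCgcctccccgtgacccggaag
Rpl4: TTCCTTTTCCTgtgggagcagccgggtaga
Rpl37: agTTTCCTgggcggaagcttatccacagga
Rps18: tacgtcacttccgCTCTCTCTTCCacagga
Rps27: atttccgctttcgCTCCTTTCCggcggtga
Rpl27a: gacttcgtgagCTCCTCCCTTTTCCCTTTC
These windows lie at chr1:39367836-39367865 (Rpl31, plus strand), chr9:64173372-64173401 (Rpl4, plus), chr15:5116598-5116627 (Rpl37, plus), chr17:33955651-33955680 (Rps18, minus), chr3:90213634-90213663 (Rps27, minus) and chr7:109519180-109519209 (Rpl27a, plus). The capital runs measured 10, 11, 6, 11, 9 and 19 bases in that order. In Rpl31, Rpl4 and Rpl37 the run lies wholly before the annotated start, and so outside the annotated mRNA. Such a run is a match of letters near the start and need not be a TOP tract. A run of at least 6 was present in this 30-base window in 35 of 56 ribosomal protein genes (62.5%) and in 32.7% of the 27025 genes of the table.

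A second set of windows shows the letters CCGGAAG, the core read by ETS factors such as GABP (its DNA-binding subunit is Gabpa). It was searched on both strands of the 300-base entries and is printed in capitals. On the minus strand of the gene it reads CTTCCGG.
Rpl31: ctccccgtgacCCGGAAGttgtacggctac
Rpl37: accaagacccgCCGGAAGtagtttcctggg
Rps18: agaaggccgaaCCGGAAGttatagctccgg
Rpl27a: agctaccggggCTTCCGGgggcgggcgcca
These stretches lie at chr1:39367848-39367877 (Rpl31, plus strand), chr15:5116579-5116608 (Rpl37, plus), chr17:33955804-33955833 (Rps18, minus) and chr7:109519015-109519044 (Rpl27a, plus). The core was present in 23 of 56 ribosomal protein genes (41.1%) and in 9.93% of the 27025 genes. A match of letters is a description and not a binding site. Genes with the core had a median log2 change of −0.48 at day 9 and −0.56 at day 14 against mESC, and genes without it −0.46 and −0.57. With a C and T run the medians were −0.50 and −0.61, and without one −0.42 and −0.54. Both sets therefore held genes with large and with small changes.

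Levels are given as scaled levels, the log2 of the processed signal minus the array's 75th percentile over all probes, so that 0 means a signal equal to that percentile. On each array a single probe, the one with the highest mean, stands for a gene. That percentile lay between 343 and 384 signal units in mESC, between 376 and 419 at day 9 and between 434 and 478 at day 14, and 0 spots were saturated. Pearson's r between arrays over the tested genes was at least 0.9893 within a group and at least 0.797 between groups. As a check of the labels, all 8 pluripotency markers listed were lower at both days than in mESC and all 10 cardiomyocyte markers were higher. Markers of other cells rose too: 7 of 7 fibroblast and 6 of 6 liver and endoderm markers at both days, and 7 of 7 macrophage markers at day 14. Of all genes, 37.9% were called higher at day 9 and 39.0% at day 14, and 45.0% and 45.9% lower. At day 9 the macrophage markers Csf1r and Tyrobp, on 0 mESC arrays well above background, were at least 4.73-fold and 3.03-fold higher than in mESC, while Adgre1, C1qa, C1qc and Lyz2 were not well above background at either stage. The summed scaled signal of the 7 macrophage markers was 0.0581 to 0.0739 times the 75th percentile in mESC, 0.224 to 0.321 at day 9 and 16.8 to 21.0 at day 14. For the 10 cardiomyocyte markers it was 5.43 to 6.16 in mESC, 223 to 437 at day 9 and 228 to 299 at day 14. For the 7 fibroblast markers it was 0.969 to 1.04, 248 to 436 and 570 to 625 at the same stages. The RNA of both days thus carried markers of several cell types, and their part in the results below was not tested.

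The median scaled level of the 75 genes was 7.24, 7.28, 7.31 and 7.15 on the 4 mESC arrays, 6.71, 6.77, 6.78 and 6.77 at day 9, and 6.67, 6.65, 6.62 and 6.64 at day 14. All 8 arrays of differentiating cells therefore lay below all 4 mESC arrays. Before any scaling, the median signal of the 75 genes was 53086 to 57077 in mESC, 41137 to 43958 at day 9 and 43880 to 46847 at day 14. The family made up 9.01% ± 0.256 of the summed signal in mESC, 7.86% ± 0.127 at day 9 and 7.70% ± 0.0735 at day 14 (SD, n = 4 each). In bulk RNA, fewer cells of a type and less RNA per cell cannot be told apart.

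**Figure D1:**
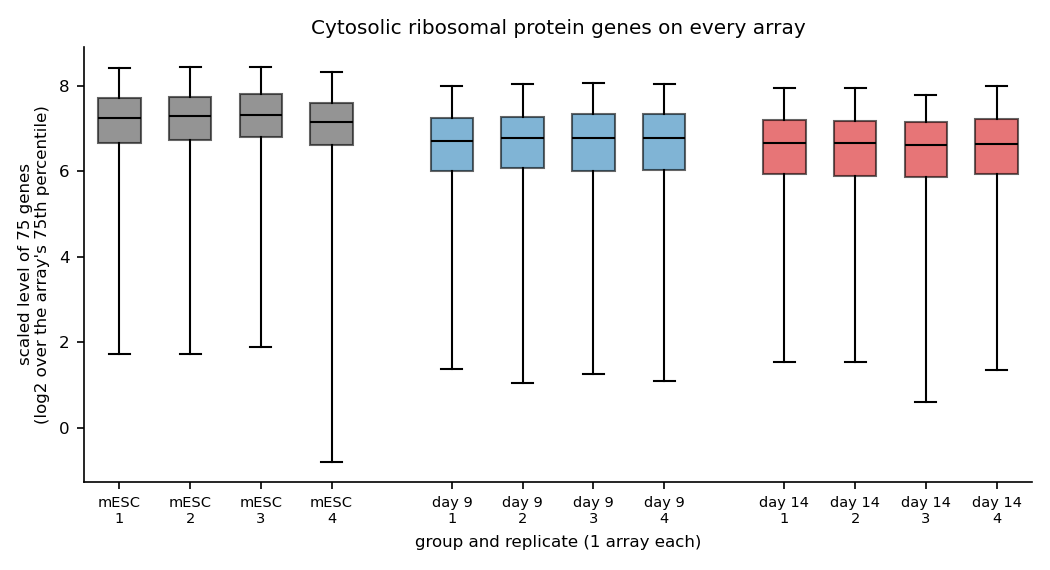
Scaled levels (log2 over each array's 75th percentile) of the 75 ribosomal protein genes on each of 12 arrays. Boxes span the quartiles with the median as a line, and whiskers reach the lowest and highest gene. The mESC medians lie between 7.15 and 7.31, those of day 9 between 6.71 and 6.78, and those of day 14 between 6.62 and 6.67.

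At day 9 the ribosomal protein genes were lower than in mESC under 75th percentile scaling, where the median gene fell by 27.4%. The limma fit called 73 of the 75 lower and 0 higher at an adjusted p under 0.05, while 45.0% of all genes were called lower and 37.9% higher. Only Rpl31 and Rps4x were at least 2-fold lower, a size reached in either direction by 40.7% of all genes. In 70 of the 75 every day 9 array lay below every mESC array, as for 42.6% of all genes, and in 0 above, as for 35.4%. The changes ran from −1.14 to 0.06 with quartiles of −0.61 and −0.37, against −0.78 and 0.74 over all genes, so the family moved by small and similar amounts. The median log2 change was −0.46, against −0.10 over all genes.

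At day 14 the same comparison with mESC showed that the median gene fell by 32.4% under 75th percentile scaling, with 74 of 75 genes called lower and 0 higher. Over all genes 45.9% were called lower and 39.0% higher. The 4 genes that were at least 2-fold lower were Rpl31, Rpl4, Rpl37 and Rpl18, beside 45.9% of all genes changed at least 2-fold either way. Every day 14 array lay below every mESC array in 74 of 75, as for 45.3% of all genes, and 38.3% of all genes lay above. The median log2 change was −0.56, against −0.11 over all genes, and the quartiles were −0.71 and −0.49. Day 9 and day 14 share the mESC arrays, so these comparisons are not independent of each other.

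**Figure D2:**
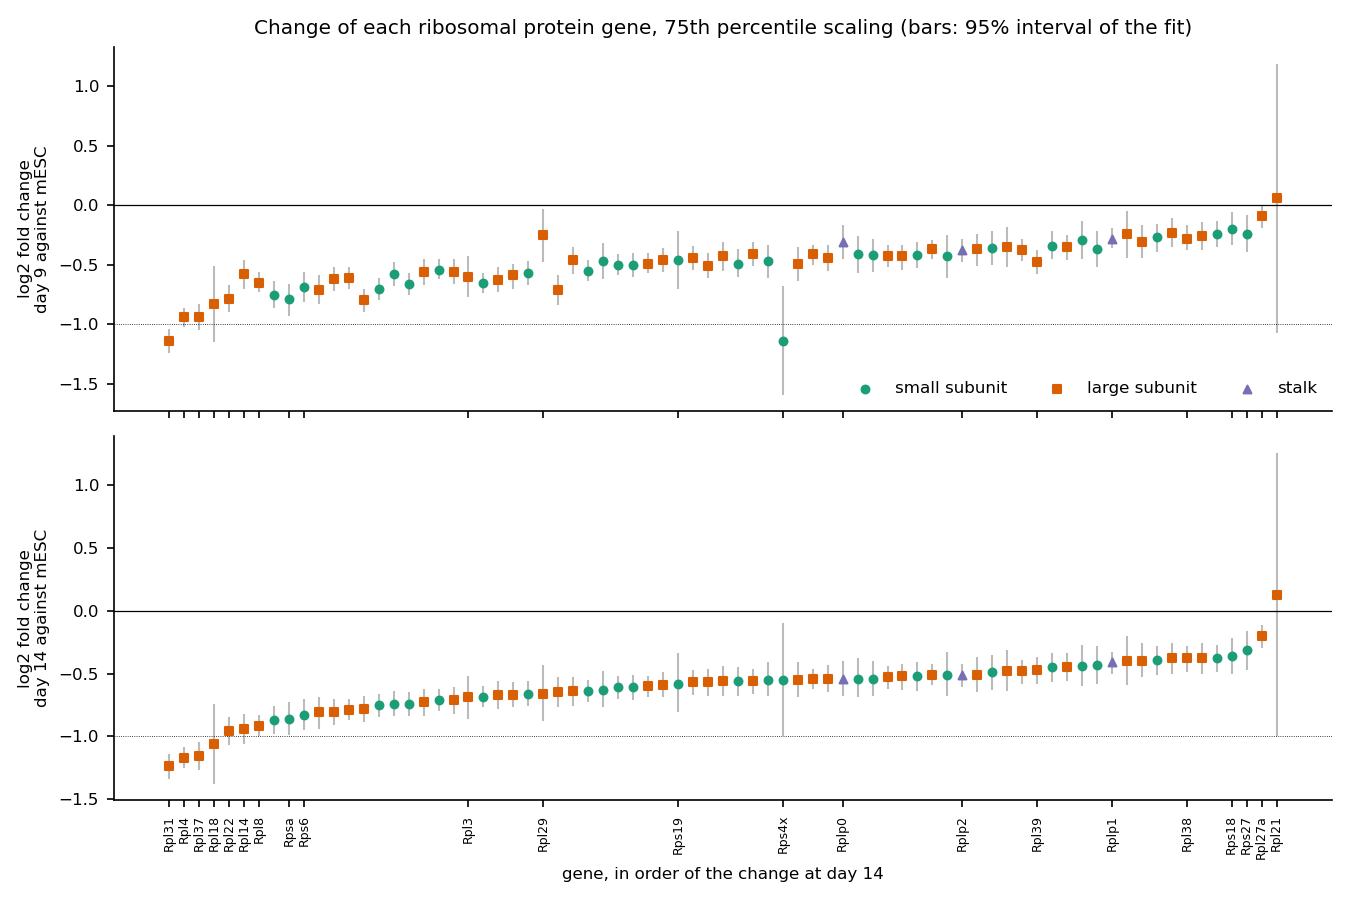
Log2 fold change of each of the 75 genes at day 9 (top) and day 14 (bottom) against mESC, in order of the day 14 value, under 75th percentile scaling. Symbols mark the subunit, names mark genes described in the text, bars the 95% interval of the fit, and the dotted line a 2-fold fall. All genes but Rpl21 lie below 0, and Rps4x stands apart from its neighbours at day 9.

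How far the family as a whole fell depended on how arrays were scaled. Quantile normalization, which gives all arrays the same spread of values, left a median log2 change of −0.04 at day 9 and −0.04 at day 14, with 14 and 11 genes called higher and 30 and 30 lower against mESC. Over all genes that setting called 38.7% and 38.1% higher and 44.0% and 47.1% lower, so the members' share of lower calls was near the background. Cyclic loess, which evens out differences between arrays at each level of brightness, gave medians of −0.13 and −0.05, with 4 and 10 genes higher and 45 and 28 lower, beside 41.7% and 44.4% of all genes higher and 40.6% and 39.5% lower. At day 14 the members' share of lower calls was again near the background. Under both the whole-family fall was therefore much smaller than under the 75th percentile. Scaling to the array median or the total signal keeps the distance to the median of all genes at −0.36 for day 9 and −0.45 for day 14, the same as under the 75th percentile. Relative to that median, the family lay at 0.04 and 0.11 with quantile normalization and at −0.14 and −0.11 with cyclic loess, while normexp background correction gave −0.36 and −0.87. These genes sit at the bright end of each array: 17 to 22 of the 75 lay below the array's 99th percentile and the others above it.

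A smaller set was lower under each of these scalings, of which the 75th percentile, the array median and the total signal differ only by a constant shift per array. Under 6 ways of scaling, 29 genes were called lower in each at day 9 and 26 at day 14 against mESC, and 0 were called higher in each. That is 38.7% and 34.7% of the 75, beside 25.1% and 23.9% of all genes lower under all 6 and 21.9% and 23.6% higher. The set at day 9 includes Rpsa, Rps4x, Rps6, Rps9, Rps10, Rps15, Rps15a, Rps25 and Rps26 of the small subunit. From the large subunit it includes Rpl3, Rpl4, Rpl6, Rpl8, Rpl10a, Rpl13a, Rpl14, Rpl15, Rpl18, Rpl22, Rpl24, Rpl26, Rpl28, Rpl30, Rpl31, Rpl35a, Rpl36 and Rpl37. At day 14 Rps21 joined, while Rpl3, Rpl24, Rpl28 and Rps4x did not hold under every scaling. In this set Rpl22, Rpl37 and Rps15a each had a further probe that was called higher at day 9. Another 14 genes at day 9 and 11 at day 14 were called lower under one scaling and higher under another. Those with such opposite calls in both comparisons were Rpl7a, Rpl11, Rpl27a, Rpl37a, Rpl38, Rplp1, Rps12, Rps14, Rps18 and Rps27, and their direction depends on the scaling.

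**Figure D3:**
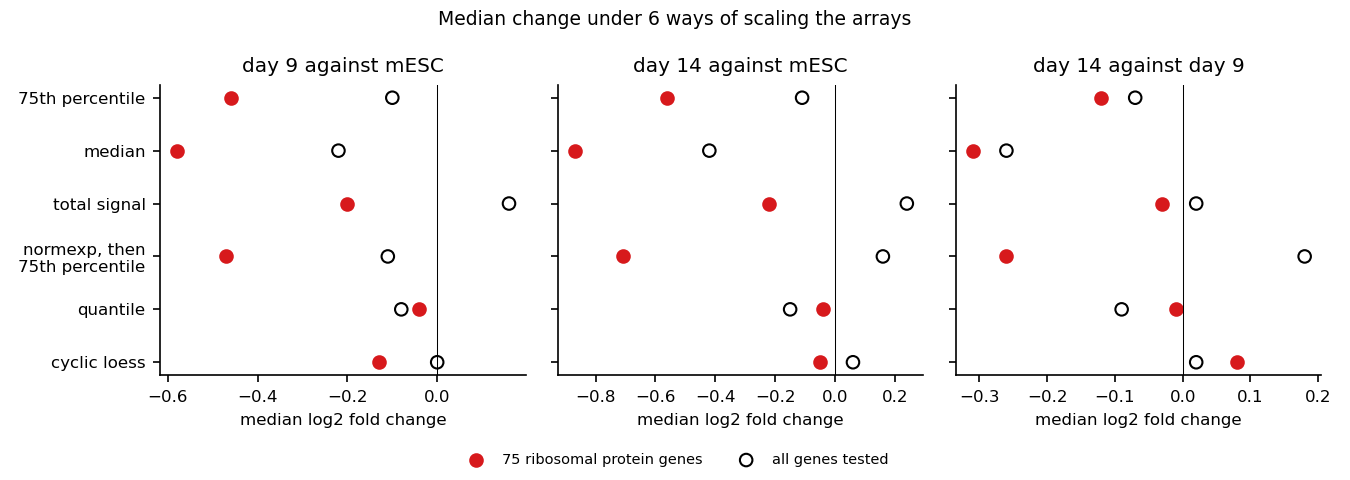
Median log2 fold change of the 75 ribosomal protein genes (filled) and of all genes tested (open) under 6 ways of scaling, for each comparison. Under the 75th percentile the family's median was −0.46, −0.56 and −0.12 in the order of the panels, and under quantile normalization −0.04, −0.04 and −0.01.

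Among single genes, Rpl31, a large subunit protein near the exit of the tunnel for the growing chain, changed most. Its scaled level was 3.46, 3.41, 3.49 and 3.35 in mESC, 2.26, 2.32, 2.27 and 2.29 at day 9, and 2.25, 2.10, 2.18 and 2.20 at day 14. All day 14 arrays lay just below all day 9 arrays, and both lay far below mESC. The fall was 2.20-fold at day 9 (log2 −1.14 ± 0.05 SE, limma adjusted p = 5.14e-10) and 2.37-fold at day 14 (−1.24 ± 0.05, adjusted p = 1.96e-10). Over the 6 scalings it ranged from −1.26 to −0.88 at day 9 and from −1.55 to −0.90 at day 14. A second, dimmer probe of Rpl31 changed less, by −0.44 ± 0.05 and −0.64 ± 0.05.

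Rpl4, which lines that tunnel, stood at 5.79, 5.81, 5.86 and 5.80 in mESC, 4.90, 4.88, 4.85 and 4.88 at day 9, and 4.69, 4.64, 4.59 and 4.68 at day 14. The 3 stages did not overlap. It was lower by −0.94 ± 0.04 at day 9 and by −1.17 ± 0.04 at day 14 (limma adjusted p = 4.34e-10 and 5.34e-11). Rpl37, a zinc-binding large subunit protein, stood at 7.32, 7.38, 7.39 and 7.36 in mESC, 6.32, 6.47, 6.39 and 6.51 at day 9, and 6.18, 6.20, 6.14 and 6.29 at day 14. Its log2 changes were −0.94 ± 0.05 and −1.16 ± 0.05. A second Rpl37 probe, near the dim end of the array, was called higher at day 9 (0.38 ± 0.05) and stood at −0.25 ± 0.05 at day 14. Rpl18 was lower by −0.83 ± 0.14 and −1.06 ± 0.14, and its day 14 mean rests in part on 1 low array, at 5.32 beside 5.87 to 5.91 on the other 3.

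**Figure D4:**
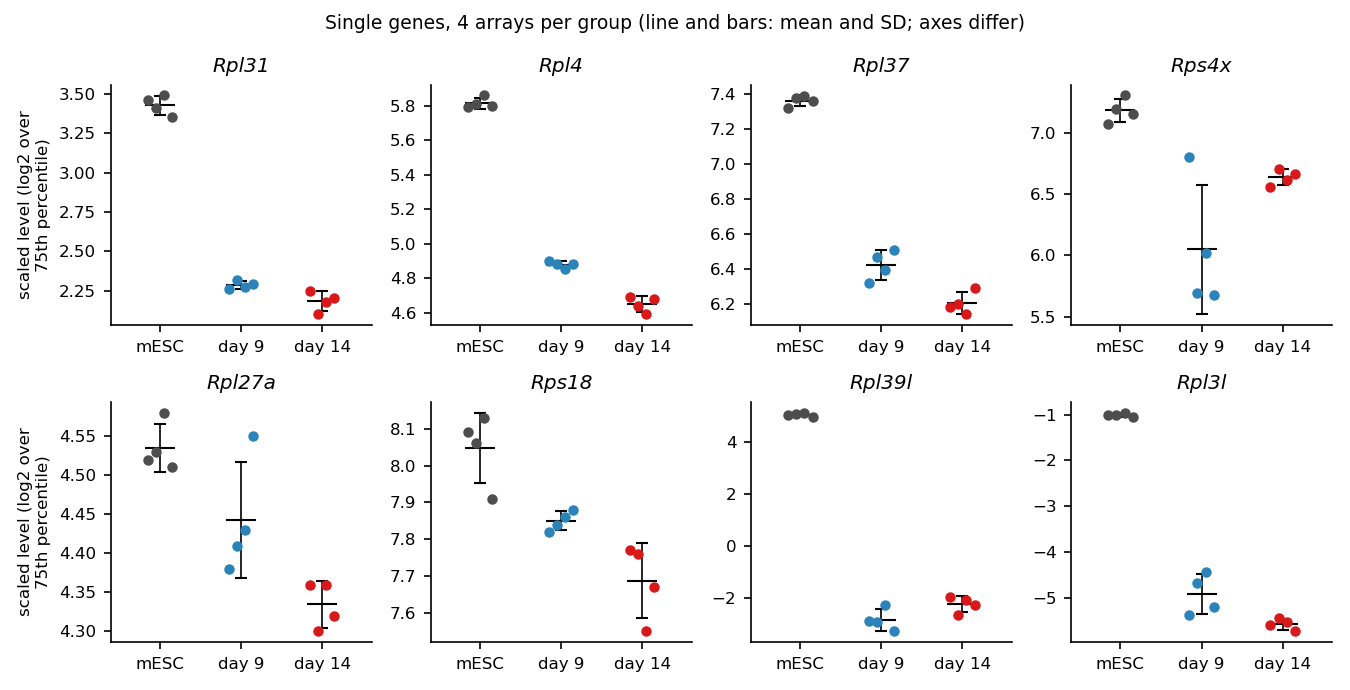
Scaled level of single genes on each of 12 arrays (points), with the group mean and SD (line and bars), in mESC, at day 9 and at day 14. The scale differs between panels. Rpl31, Rpl4, Rpl37, Rpl39l and Rpl3l separate mESC from both days, Rps4x is spread at day 9, and Rpl27a spans only 4.30 to 4.58.

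The X-linked Rps4x, a small subunit protein whose human counterpart has a copy on the Y chromosome, followed its own course. Its level was 7.08, 7.20, 7.31 and 7.16 in mESC, 6.81, 5.69, 6.02 and 5.68 at day 9, and 6.56, 6.71, 6.62 and 6.67 at day 14. Day 9 replicate 1 lay above all day 14 arrays and the other 3 day 9 arrays lay below them all. At day 9 it was 2.20-fold lower than in mESC (−1.14 ± 0.20, limma adjusted p = 0.000295), and −1.39 without replicate 1. At day 14 it was lower by −0.55 ± 0.20 (adjusted p = 0.0265), a call lost under quantile normalization (−0.01), cyclic loess (−0.04) and total signal scaling (−0.20), and without day 14 replicate 1 or 3 or mESC replicate 3 (−0.52, −0.54 and −0.51). It was the only 1 of the 75 called higher at day 14 than at day 9 (0.59 ± 0.20, adjusted p = 0.0268). That call was lost without day 14 replicate 2 or 4 or day 9 replicate 2, 3 or 4, with an adjusted p up to 0.0764, while without day 9 replicate 1 the change was 0.84. The call was also lost with median scaling (0.40), with normexp (0.40) and with only the 8 arrays compared (0.59). The other 3 X-linked members, Rpl10, Rpl36a and Rpl39, changed by −0.41, −0.46 and −0.48 at day 9, close to the family's median.

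Small subunit genes were called lower in 29 of 29 at both days under 75th percentile scaling, beside 45.0% and 45.9% of all genes. Their medians were −0.47 at day 9 and −0.56 at day 14. Rpsa, which is also known as the precursor of the laminin receptor, stood at 6.50, 6.54, 6.47 and 6.44 in mESC, 5.62, 5.61, 5.72 and 5.82 at day 9, and 5.67, 5.57, 5.54 and 5.72 at day 14. The days overlapped each other and lay below mESC, with log2 changes of −0.79 ± 0.06 at day 9 and −0.86 ± 0.06 at day 14. Rps6, the target of the S6 kinases, changed by −0.69 ± 0.06 at day 9 and −0.83 ± 0.06 at day 14. Rps25, which is needed for initiation at some viral internal entry sites, changed by −0.66 ± 0.04 and −0.74 ± 0.04. Rps19, whose human counterpart is mutated in Diamond-Blackfan anaemia, changed by −0.46 ± 0.11 and −0.58 ± 0.11, with 1 day 9 array at 3.91 above the other 3. Rps27a, made as a fusion with ubiquitin, changed by −0.37 ± 0.07 and −0.43 ± 0.07, and at day 14 it stood at 0.03 with quantile normalization.

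Large subunit genes were called lower in 41 and 42 of 43, at day 9 and at day 14, under 75th percentile scaling, beside 45.0% and 45.9% of all genes. Their medians were −0.46 and −0.57. Rpl10a changed by −0.80 ± 0.05 at day 9 and −0.78 ± 0.05 at day 14. Rpl3, of the peptidyl transferase centre, changed by −0.60 ± 0.08 and −0.69 ± 0.08. Rpl10, which is needed for the subunits to join, changed by −0.41 ± 0.04 and −0.54 ± 0.04, and at day 14 stood at −0.08 with quantile normalization. Rpl5 and Rpl11, which bind Mdm2 when ribosome assembly is disturbed, changed by −0.60 ± 0.04 and −0.38 ± 0.05 at day 14, and with quantile normalization stood at −0.02 and 0.13. Rpl38, which mouse embryos need for the translation of Hox mRNAs, changed by −0.38 ± 0.05 at day 14 and stood at 0.16 with quantile normalization. The stalk genes Rplp0, Rplp1 and Rplp2 had day 14 log2 changes of −0.54 ± 0.06, −0.41 ± 0.04 and −0.51 ± 0.04, and under quantile normalization Rplp0 and Rplp1 were at 0.00 and 0.10.

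The 2 genes not called at day 9 were Rpl27a and Rpl21. Rpl27a stood at 4.38, 4.41, 4.43 and 4.55 at day 9, against 4.52, 4.53, 4.58 and 4.51 in mESC, a change of −0.09 ± 0.04 (limma adjusted p = 0.0671). At day 14 it stood at 4.36, 4.30, 4.36 and 4.32, against the same mESC arrays a change of −0.20 ± 0.04 (adjusted p = 0.00107) that was the smallest of those called. Under 3 of the 6 scalings it was called higher than in mESC at day 9, and under 3 at day 14. Rpl21 stood at 1.72, 1.73, 1.90 and −0.79 in mESC, 1.38, 1.06, 1.27 and 1.09 at day 9, and 1.55, 1.55, 0.61 and 1.35 at day 14. Replicate 4 of mESC lay far below the other 3 of its group, and the log2 changes of 0.06 ± 0.51 and 0.13 ± 0.51 were not called.

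To compare the genes with each other rather than with the rest of the array, each array was also scaled on the median of the 75 genes, a choice made after seeing the data. At day 9, 21 genes then stood higher and 21 lower than that median relative to mESC, while 55.2% of all genes were called higher and 27.1% lower. At day 14 the counts were 17 and 20, beside 58.1% and 26.9% of all genes. A near balance of higher and lower members follows from scaling on their own median and is not a result. Starting from quantile or cyclic loess values, the same call was made in 20 of those higher and 21 of those lower at day 9, and in 16 and 20 at day 14. The lowest called at day 14 were Rpl31 (−0.64), Rpl4 (−0.57), Rpl37 (−0.56), Rpl18 (−0.46), Rpl22 (−0.36) and Rpl14 (−0.34). The highest among genes called were Rpl27a (0.40), Rps27 (0.29), Rps18 (0.24), Rpl37a (0.22), Rps14 (0.22) and Rpl11 (0.22). The order of the 75 genes by log2 change hardly moved with the scaling: Spearman's rho between the 75th percentile and the quantile values was 0.95 at day 9 and 0.97 at day 14, across genes that are not independent replicates.

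Between the days the genes moved little. At day 14 against day 9, 30 of 75 were called lower and 1 higher under 75th percentile scaling, beside 36.1% and 26.6% of all genes. Of the 75, 0 were changed at least 2-fold, against 13.8% of all genes. Every day 14 array lay below every day 9 array in 42, as for 32.6% of all genes, and in 0 above, as for 24.2%. The median was −0.12, against −0.07 over all genes, and leaving out 1 array at a time gave 20 to 39 genes lower. Other scalings moved the count of genes called lower over its whole range: 72 with the array median, 6 with total signal, 5 with quantile normalization, and 1 lower beside 22 higher with cyclic loess. Over all genes these settings called 51.5%, 28.2%, 38.2% and 28.1% lower. Quantile normalization called 4 members and 25.3% of all genes higher, and cyclic loess called 32.2% of all genes higher.

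Of the 75 genes, Rpl14 alone was called lower at day 14 than at day 9 under all 6 scalings and 0 were called higher, beside 14.1% and 11.4% of all genes. Its level was 1.86, 1.81, 1.69 and 1.72 at day 14, against 2.22, 2.17, 2.09 and 2.04 at day 9, without overlap. The change was −0.36 ± 0.05 (limma adjusted p = 0.000146) and ranged from −0.55 to −0.21 over the scalings. Rpl29, known also as a heparin-binding protein, stood at 4.41, 4.76, 4.83 and 4.97 at day 14, against 5.08, 5.17, 5.07 and 5.27 at day 9. Its change of −0.41 ± 0.10 (adjusted p = 0.00493) was not called under cyclic loess (−0.22), and its 3 further probes changed by −0.15, −0.19 and −0.17. Rpl8, a neighbour of the peptidyl transferase centre, stood at 7.47, 7.42, 7.44 and 7.42 at day 14, against 7.69, 7.67, 7.73 and 7.74 at day 9 (−0.27 ± 0.04, adjusted p = 0.000117), a call lost with cyclic loess (−0.06). Scaled on the family's own median, 4 genes were higher and 3 lower, beside 33.0% and 24.5% of all genes. The same call was made from all 3 starting scalings for Rps4x (0.70), Rpl28 (0.18) and Rpl39 (0.12) above, and for Rpl29 (−0.29), Rpl14 (−0.24) and Rpl8 (−0.15) below.

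Probes of 1 gene did not all give the same call. In 7 of the 28 genes with several probes at day 9, 4 at day 14 and 16 between the days, a further probe was not called the same way as the main one. For these 28 genes, 34 further probes were tested, of which 27 were called lower and 5 higher at day 9 (over all probes 44.8% and 38.1%), 29 lower and 2 higher at day 14 (46.4% and 38.9%), and 16 lower and 0 higher between the days (36.6% and 25.4%). A further probe was called the opposite way for Rpl22, Rpl37, Rpl5 and Rps15a at day 9 and for Rpl22 and Rpl5 at day 14. The main probe of Rpl22, known for binding an RNA of Epstein-Barr virus, changed by −0.79 ± 0.05 at day 9 and −0.96 ± 0.05 at day 14. Its second probe changed by 0.60 ± 0.04 and 0.51 ± 0.04. For Rpl5 the second probe changed by 0.74 ± 0.06 at day 9 and 0.16 ± 0.06 at day 14. The directions of Rpl22 and Rpl5 at both days, and of Rpl37 and Rps15a at day 9, are therefore given by probe only. Ribosomal protein genes have many processed pseudogenes, and the probe sequences were not compared with them here.

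Brightness set a further limit. The scanner read each slide at 2 detector settings, and spots too bright for the higher were taken from the lower. Of the 75 genes, 60 were read at the lower setting on all arrays, 8 on some and 7 on none. In an alternative added after seeing the data, only probes read at the higher setting on every array were kept. This left 19 genes, with 12 lower and 4 higher at day 9 and 15 lower and 2 higher at day 14. Between the days 8 were lower and 0 higher. With all probes kept, 45.0%, 45.9% and 36.1% of all genes were lower and 37.9%, 39.0% and 26.6% higher. The median log2 changes of the 19 were −0.50, −0.66 and −0.12, beside −0.44, −0.54 and −0.12 for the 60 genes read at the lower setting throughout. Only 7 of the 19 kept their main probe, with medians of −0.46, −0.66 and −0.11. The others were read from a dimmer probe, and their main probes were read at the lower setting on all or some arrays. The groups compared therefore overlap. The 8 genes whose arrays were read at different settings had medians of −0.77, −0.84 and −0.13. For 4 of these 8 the lower setting was used on every mESC array and on no day 9 or day 14 array. Setting and stage cannot be told apart in those genes.

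Larger changes were measured in the paralogues, which take the place of a common ribosomal protein in some tissues. Of 11 paralogues and fused or near-identical genes listed, 9 were tested. Of these, 8 were lower at day 9 and 9 at day 14 than in mESC, beside 45.0% and 45.9% of all genes. Rpl39l, the germ-line paralogue of Rpl39, stood at 5.03, 5.07, 5.12 and 4.97 in mESC, −2.85, −2.91, −2.25 and −3.27 at day 9, and −1.95, −2.65, −2.05 and −2.24 at day 14. It was 234-fold lower at day 9 (log2 −7.87 ± 0.20, limma adjusted p = 1.13e-11) and 155-fold lower at day 14 (−7.27 ± 0.20, adjusted p = 1.74e-11). Its second probe was well above background on all 4 mESC arrays and on 0 of the 8 others. Over the 6 scalings the change of Rpl39l was −7.99 to −6.74 at day 9 and −7.58 to −6.12 at day 14. Rpl39 itself, which lines the exit tunnel, stood at 6.79, 6.78, 6.84 and 6.69 in mESC, 6.19, 6.34, 6.31 and 6.35 at day 9, and 6.29, 6.32, 6.29 and 6.31 at day 14.

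Rpl3l, the paralogue of Rpl3 found in heart and skeletal muscle, stood at −1.01, −1.0, −0.96 and −1.06 in mESC, −5.37, −4.66, −4.42 and −5.18 at day 9, and −5.58, −5.43, −5.52 and −5.72 at day 14. It was well above background on 3 of 4 arrays at each day and on 4 of 4 in mESC. The log2 changes of Rpl3l were −3.90 ± 0.17 at day 9 and −4.55 ± 0.17 at day 14 (limma adjusted p = 1.38e-09 and 2.89e-10), and over the 6 scalings they reached −1.84 and −1.52 at the smallest. The muscle paralogue was thus lower, not higher, in the samples in which all 10 cardiomyocyte markers were higher. Rpl22l1, the paralogue of Rpl22, changed by −0.67 ± 0.06 at day 9 and −0.46 ± 0.06 at day 14, and was called higher at day 14 than at day 9 (0.20 ± 0.06, adjusted p = 0.00936). At day 14 it stood at 0.03 with quantile normalization. Rpl7l1, Rpl36al, Rps27l and Rps3a1 were lower at day 14 by −0.91, −0.87, −0.88 and −0.69. A second Rpl7l1 probe changed more, by −1.61 ± 0.06 at day 9 and −1.83 ± 0.06 at day 14. Fau, made as a fusion with a ubiquitin-like protein, changed by −0.29 ± 0.05 at day 9 and by −0.43 ± 0.05 at day 14, and with quantile normalization it stood at 0.12 at day 14.

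Genes that build ribosomes had a lower median log2 change than those that make them up. Of 35 ribosome biogenesis genes tested, 35 were lower at day 9 and 35 at day 14 than in mESC, with medians of −1.14 and −1.74. Between the days 34 were lower (median −0.46). These 3 comparisons called 45.0%, 45.9% and 36.1% of all genes lower. With quantile normalization 33, 35 and 33 were lower, beside 44.0%, 47.1% and 38.2% of all genes. The medians of the 35 were then −1.02, −1.56 and −0.41. Dkc1, the pseudouridine synthase that modifies rRNA, changed by −2.86 ± 0.06 at day 9 and −3.15 ± 0.06 at day 14. Rrp9, of the small nucleolar particle that processes rRNA, changed by −2.08 ± 0.06 and −2.94 ± 0.06. Rrp12, a factor for the export of pre-ribosomes, changed by −1.93 ± 0.13 and −2.92 ± 0.13. The summed scaled signal of the 35 genes was 666 to 688 times the 75th percentile in mESC, 309 to 324 at day 9 and 232 to 236 at day 14. For the 75 ribosomal protein genes it was 10900 to 12200, 8140 to 8830 and 7670 to 7920. The lists were not tested against each other.

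Translation factors moved by amounts closer to the ribosomal proteins. Of 27 tested, 24 were lower and 1 higher at day 9 and 26 lower and 1 higher at day 14. The shares over all genes were 45.0% and 45.9% lower and 37.9% and 39.0% higher. Medians of the 27 were −0.49 and −0.66 under 75th percentile scaling and −0.12 and −0.26 with quantile normalization. The member that rose was Eef1a2, the muscle and neuron form of the elongation factor that carries tRNA to the ribosome, which was at least 7.93-fold higher at day 9 and at least 12.1-fold higher at day 14 than in mESC, where it was not well above background on any array. Eif2s2, a subunit of the factor that brings the initiator tRNA, fell by 1.92 at day 9 and 2.00 at day 14 on the log2 scale. Of 78 mitochondrial ribosomal protein genes, 56 were lower and 13 higher at day 9 and 61 lower and 7 higher at day 14, with medians of −0.42 and −0.64. With total signal scaling 43 were lower and 23 higher (−0.16) and 52 lower and 20 higher (−0.29). Mrps5 was lower by −1.49 ± 0.05 and −1.93 ± 0.05.

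Of 17 DNA replication and mitosis genes tested, 16 were lower at day 9 and 15 at day 14 than in mESC, with medians of −1.01 and −1.52, and over the 6 scalings at least 12 and 13 were lower. Of 18 growth control genes, 12 were lower and 5 higher at day 9 and 14 lower and 3 higher at day 14, and with total signal scaling 9 lower and 5 higher and 11 lower and 6 higher. Myc, an activator of ribosome genes, rose by 4.03 ± 0.09 at day 9 and 3.79 ± 0.09 at day 14 on the log2 scale, while its relative Mycl changed by −1.65 ± 0.20 and −1.63 ± 0.20. Gabpa changed by −1.23 ± 0.06 and −1.18 ± 0.06. Eif4ebp1, the mTOR target that restrains initiation, changed by −1.60 ± 0.05 and −1.88 ± 0.05.

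**Figure D5:**
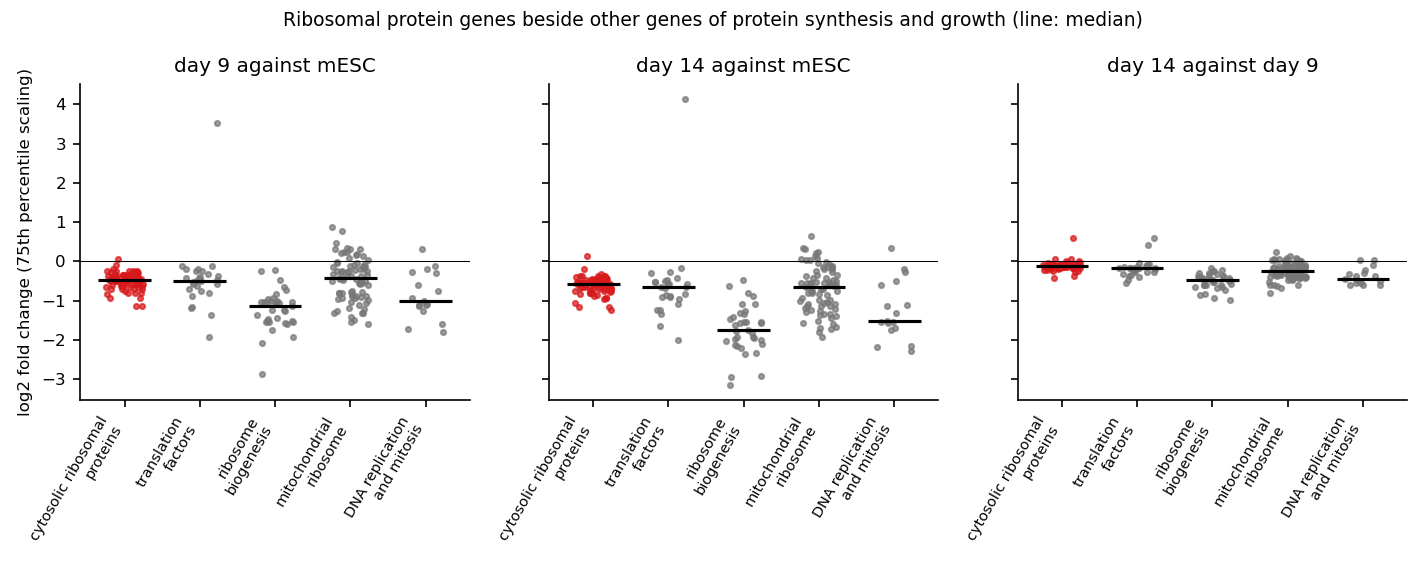
Log2 fold change of each gene (points) under 75th percentile scaling, for the 75 cytosolic ribosomal protein genes and 4 other lists, with the median as a line, for each comparison. At day 14 against mESC the medians were −0.56 for the ribosomal proteins, −0.66 for translation factors, −1.74 for ribosome biogenesis, −0.64 for the mitochondrial ribosome and −1.52 for DNA replication and mitosis.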

How the data were processed

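The deposited processed signal is an intensity that Agilent Feature Extraction 12.0.3.1 computed for each array alone, background-subtracted and detrended, per the file headers. The deposited spot median and local background are uncorrected intensities, and spots carry flags of 0 or 1 for being above background, saturated or an outlier, per the file headers. The deposited series table held the same intensities, with 0 differences.

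Here control spots and outlier spots were left out, spots of a probe were averaged on the log2 scale, and each array's 75th percentile was subtracted. Probes were named through RefSeq accessions on GRCm38.p6 (28223 named, 12951 not), while the design's own annotation uses mm9. A probe was tested if well above background on at least 3 of 4 arrays of at least 1 group. Differences were fitted with limma 3.58.1 in R 4.3.3 over all 12 arrays, two-sided, with Benjamini-Hochberg adjustment over 20875 genes and a threshold of 0.05. The number of arrays limits the precision. The fit was tested on simulated data.

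The genes and gene lists were chosen with earlier results of these data known. Genes named are the 6 called with the largest change each way per comparison, 17 key members, the paralogues, and up to 4 of each other list, and the text gives a part of them. Genes named outside this rule (Rpl21 and Rpl27a at day 9, Rpl36a, Rps18, Rps27, Rpl37a, Rps14, Rpl28, Rps15a, and those in lists of names) were chosen after their values were seen. Some single genes are not reported here. Alternatives were median, total signal, quantile and cyclic loess scaling, normexp with an offset of 50, the filter, the probe rule, the arrays fitted, an intensity trend, a replicate block and leaving out each array. Normexp was planned on the mean signal, which was not among the columns used, so the spot median was used in its place. Same-numbered arrays of different groups deviated from their group means with correlations of −0.075 to 0.184, so the numbers were not taken to pair samples.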

Additional observations from a re-analysis of the deposited data

Results flagged for a closer look

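Groups of 4 arrays were looked at for the family's median, each family member or paralogue whose values were chosen for naming, and the further probes of Rpl36a. In 6 of 134 such groups 1 array stood further from the other 3 than Dixon's test allows at the 95% level, and chance alone gives about 1 in 20. Rpl18 stood at 5.32 on day 14 replicate 1, beside 5.87 to 5.91 on the other day 14 arrays. Rpl21 stood at −0.79 on mESC replicate 4, beside 1.72 to 1.90. Rpl22 stood at 6.21 on day 14 replicate 4, beside 6.11 to 6.12. Rpl3 stood at 7.12 on mESC replicate 4, beside 7.41 to 7.45. Rps19 stood at 3.91 on day 9 replicate 4, beside 3.45 to 3.52. The second probe of Rpl36a stood at 5.00 on day 9 replicate 1, beside 6.14 to 6.35. The cause of these differences was not tested.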

How the results depend on the processing

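Counts and medians of the family moved with the scaling between arrays and single genes also with the probe used, and the cause was not tested. With cyclic loess, genes called higher and lower numbered 4 and 45 at day 9 (median log2 change −0.13) and 10 and 28 at day 14 (−0.05) against mESC, and 22 and 1 at day 14 against day 9 (0.08). With quantile normalization they numbered 14 and 30 (−0.04), 11 and 30 (−0.04), and 4 and 5 (−0.01). Cyclic loess left 0 and 0 genes changed at least 2-fold against mESC at day 9 and day 14, and quantile normalization 0 and 1. With total signal scaling 1 gene was higher at each day against mESC and 0 changed 2-fold (medians −0.20 and −0.22), and 3 were higher and 6 lower between the days (−0.03). With median scaling 74 and 74 were lower against mESC, beside 49.2% and 55.4% of all genes. Of the members 4 and 21 changed at least 2-fold (−0.58 and −0.87), and 0 were higher and 72 lower between the days (−0.31). With normexp 7 changed at least 2-fold at day 14 (−0.71), and 0 were higher and 3 lower between the days (−0.26). Averaging the probes of a gene gave 1 higher and 1 changed 2-fold at day 9 and a day 14 median of −0.62. Fitting only the 8 arrays compared gave 0 higher between the days. Probes read at the higher detector setting, chosen after seeing the data, gave 4 higher and 12 lower at day 9, 2 and 15 at day 14 (−0.66), and 0 and 8 between the days, over 19 genes. Of these 19 genes, 7 kept their main probe.

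Signs turned for these single genes. With cyclic loess at day 9 against mESC, log2 changes were 0.07 for Fau, 0.05 for Rpl11, 0.06 for Rpl38, 0.02 for Rplp0 and 0.07 for Rplp1. At day 14 against mESC they were 0.13 for Fau, 0.12 for Rpl11, 0.02 for Rpl22l1, 0.15 for Rpl38, 0.03 for Rpl39, 0.14 for Rplp1, 0.04 for Rplp2 and 0.05 for Rps27a. At day 14 against day 9 they were 0.06 for Fau, 0.06 for Rpl10, 0.02 for Rpl22, 0.09 for Rpl38, 0.09 for Rpl5, 0.07 for Rplp1 and 0.07 for Rplp2. With quantile normalization the day 9 values were 0.18 for Fau, 0.14 for Rpl11, 0.13 for Rpl38, 0.12 for Rplp0, 0.13 for Rplp1 and 0.02 for Rplp2. The day 14 values were 0.12 for Fau, 0.13 for Rpl11, 0.03 for Rpl22l1, 0.16 for Rpl38, 0.04 for Rpl39, 0.00 for Rplp0, 0.10 for Rplp1 and 0.03 for Rps27a, and between the days 0.00 for Rpl10 and 0.01 for Rpl5. Averaging probes turned Rpl5 at day 9 (0.13). Probes at the higher detector setting gave 0.60 and 0.51 for Rpl22 and 0.74 and 0.16 for Rpl5 at day 9 and day 14, and 0.38 for Rpl37 at day 9. Between the days median scaling gave −0.18 for Rpl10a and −0.19 for Rpl39, and normexp 0.32 for Rpl3l.

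Leaving out 1 array at a time gave 71 to 74 genes lower and 0 to 0 higher at day 9 against mESC, with 2 to 2 changed at least 2-fold and medians of −0.51 to −0.44. At day 14 against mESC it gave 73 to 75 lower, 0 to 0 higher, 3 to 4 changed 2-fold and medians of −0.59 to −0.54. Between the days it gave 20 to 39 lower, 0 to 1 higher, 0 to 0 changed 2-fold and medians of −0.14 to −0.10. With the replicate number as a block, 73, 74 and 22 genes were lower in the 3 comparisons and the medians were −0.46, −0.56 and −0.12. The block changed the call of 1 of 152 single-gene values. The deposited series table changed 0 of the 152 values.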

Other observations

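The summed scaled signal of 6 endothelial markers was 1.84 to 1.98 times the 75th percentile in mESC, between 5.16 and 7.45 at day 9 and between 2.80 and 3.16 at day 14. The sum mixes opposite courses: at both days 5 of the 6 were called higher than in mESC and 1, Pecam1, lower (−3.53 ± 0.10 and −4.72 ± 0.10). Cdh5, Tie1 and Emcn were not well above background in mESC. All 6 were called lower at day 14 than at day 9 (median log2 change −1.41), beside 36.1% of all genes. All 7 macrophage markers were called higher in that comparison, beside 26.6% of all genes.

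A second probe of Rpl36a, singled out after its values were seen, was lowest on replicate 1 in each group. It stood at 5.81, 6.55, 6.61 and 6.44 in mESC, 5.00, 6.35, 6.30 and 6.14 at day 9, and 4.91, 5.86, 5.97 and 6.14 at day 14. Its log2 changes against mESC, −0.40 ± 0.34 at day 9 and −0.63 ± 0.34 at day 14, were not called.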
